A study of Mus musculus with 14 samples.

Results

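Promoter regions of protein-coding genes were examined in bulk ATAC-seq data from splenic Tregs, an assay whose transposase inserts where DNA is exposed, so that accessible regions collect more reads. A region of the deposited count table was taken as a promoter when its midpoint lay within 1 kb of the start of a protein-coding transcript in the RefSeq annotation of GRCm38, a rule that uses position and no measured value. It was met by 14749 of 67254 regions, 21.93% of the table. These regions lay near a start of 12364 genes, 56.78% of the 21774 protein-coding genes with an annotated start. Their median length was 514 bp, against 304 bp for the other regions.

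The study asked what loss of Atg14, a subunit of an autophagy-initiating Vps34 complex, does to chromatin in 2 states of Tregs. CD45.2+ BM from Foxp3Cre Atg14+/fl mice (control) or Foxp3Cre Atg14fl/fl mice (Atg14-deficient) was mixed 1:1 with CD45.1+ WT spike BM and given to sublethally irradiated Rag1-/- hosts, which have no T or B cells of their own, and spleens were taken after 6 to 8 weeks. From the CD45.2+ CD4+Foxp3-YFP+ cells, which leaves out those of the spike, cTregs (central Tregs) were sorted by low CD44 and high CD62L and eTregs (effector Tregs) by high CD44 and low CD62L. There were 3 control cTreg, 4 Atg14-deficient cTreg, 3 control eTreg and 4 Atg14-deficient eTreg libraries. Cre was driven from the Foxp3 locus, so deletion was aimed at Foxp3-expressing cells, and the controls also carried Cre and a single floxed allele. The methods give an age range for the mouse lines as a whole but no age for the marrow donors or hosts of these libraries. The study describes 3 control and 4 Atg14-deficient chimeras as the source of these cells, and the labels do not tie a library to a chimera.

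A promoter is the stretch around a transcription start where general transcription factors and RNA polymerase assemble, and at active genes it is depleted of nucleosomes. Most mammalian housekeeping genes start in CpG islands, GC-rich stretches that keep their CpG dinucleotides, which tend to be open in many cell types, whereas many tissue-restricted genes start in CpG-poor sequence. Differences between related cell states are generally more common at distal enhancers than at promoters.

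Sequences of a few promoters on which the results turn are shown first, read from the GRCm38.p6 genome and written 5′ to 3′ on the strand of the gene, as the longest stretch outside annotated untranslated exons of the 300 bases around the midpoint. Farp1 (chr14:121035339-121035573, plus strand) and Dcbld2 (chr16:58408425-58408534, plus strand) were more accessible in eTregs and are CpG-rich, and their CpG dinucleotides are in capitals.
Farp1: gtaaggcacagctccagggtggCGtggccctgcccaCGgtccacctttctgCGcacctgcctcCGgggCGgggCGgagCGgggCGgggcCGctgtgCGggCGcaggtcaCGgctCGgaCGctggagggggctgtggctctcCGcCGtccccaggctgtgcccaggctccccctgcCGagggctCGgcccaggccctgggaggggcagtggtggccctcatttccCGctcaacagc
Dcbld2: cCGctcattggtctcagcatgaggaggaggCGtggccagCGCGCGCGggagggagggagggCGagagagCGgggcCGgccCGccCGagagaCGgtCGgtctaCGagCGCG

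Ppa2 (chr3:133339472-133339771, plus strand) and Sox4 (chr13:28953700-28953821, minus strand) were less accessible in eTregs and are CpG-poor by the 500 bp around the midpoint. Sox4 has 0.595 of the expected CpG frequency there, just under the limit of 0.6, and the shorter stretch printed is 56.56% GC. Capitals mark letters of a searched motif on either strand, TGTGGT (RUNX) in Ppa2 and CCAATC (the motif of NF-Y) in Sox4. Such letters are a description and not a shown binding site, since 13.7% of all promoter regions hold the former and 16.47% the latter in the central 300 bp.
Ppa2: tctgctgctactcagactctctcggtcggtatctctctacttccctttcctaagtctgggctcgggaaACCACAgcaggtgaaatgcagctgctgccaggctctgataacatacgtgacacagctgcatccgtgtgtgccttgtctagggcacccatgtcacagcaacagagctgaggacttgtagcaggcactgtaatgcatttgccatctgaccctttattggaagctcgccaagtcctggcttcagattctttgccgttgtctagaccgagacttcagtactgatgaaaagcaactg
Sox4: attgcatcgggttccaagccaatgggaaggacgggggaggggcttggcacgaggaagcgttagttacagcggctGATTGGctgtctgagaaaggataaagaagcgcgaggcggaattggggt

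Both regions of H2-M3 (chr17:37270831-37271130 and chr17:37270033-37270233, plus strand) passed the adjusted threshold between genotypes in both states. The first holds a match to the searched IRF motif on the minus strand, in capitals, as do 3.146% of all promoter regions on either strand. None of the 13 searched motifs was found in the second.
H2-M3 (first region): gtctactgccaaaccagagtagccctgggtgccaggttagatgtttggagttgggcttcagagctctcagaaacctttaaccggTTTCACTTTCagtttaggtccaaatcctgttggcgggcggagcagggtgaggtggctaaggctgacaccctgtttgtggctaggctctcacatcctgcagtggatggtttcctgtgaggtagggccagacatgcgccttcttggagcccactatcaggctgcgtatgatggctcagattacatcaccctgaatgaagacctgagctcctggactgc
H2-M3 (second region): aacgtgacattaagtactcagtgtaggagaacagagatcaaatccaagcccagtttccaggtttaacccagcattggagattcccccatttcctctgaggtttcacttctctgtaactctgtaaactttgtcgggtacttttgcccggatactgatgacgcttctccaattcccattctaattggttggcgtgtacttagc

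The last pair comes from Utp25 (minus strand), where neighbouring regions changed in opposite directions between the states. The region at the start (chr1:193130252-193130319) is CpG-rich and its CpG dinucleotides are in capitals, and the region upstream (chr1:193130844-193131143) is CpG-poor, with the letters TGANTCA (AP-1) in capitals, which 5.783% of all promoter regions hold.
Utp25 (start region): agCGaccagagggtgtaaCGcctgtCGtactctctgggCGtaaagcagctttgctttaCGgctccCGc
Utp25 (upstream region): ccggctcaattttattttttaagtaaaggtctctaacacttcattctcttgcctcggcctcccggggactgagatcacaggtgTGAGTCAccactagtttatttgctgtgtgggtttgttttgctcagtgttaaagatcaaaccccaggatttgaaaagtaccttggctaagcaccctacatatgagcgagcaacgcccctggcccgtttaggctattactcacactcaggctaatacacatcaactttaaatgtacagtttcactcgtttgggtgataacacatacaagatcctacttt

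Promoter regions sat close to their starts. The midpoint lay within 250 bp of a start in 74.95% and within 500 bp in 85.31% of them, and 7051 midpoints lay upstream while 7698 lay at the start or downstream. Near the limit of the rule, 334 promoter regions lay 900 to 1000 bp away and 312 regions 1000 to 1100 bp away were left outside. A region within 200 bp was found for the first start of 10222 genes, against 761 after the starts were moved by 20000 bp. The sequence around 10154 promoter regions (68.85%) was CpG-rich, meaning at least 50% GC and a CpG frequency of at least 0.6 of that expected over 500 bp, against 2.732% of the other regions. Starts of different genes on both strands were shared by 1373 promoter regions, and at these the counts cannot be divided between the genes.

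Accessibility was higher at promoters than elsewhere. Total counts per library were between 2242983 and 5548189, and CPM expresses a region's count relative to this total. The median promoter region had 38.82 CPM per kb, with the 25th and 75th percentiles at 19.55 and 75.6, against a median of 14.44 CPM per kb in the other regions, whose values lay between 9.63 and 25.01 over the same percentiles. CpG-rich promoters had a median of 48.58 CPM per kb and CpG-poor promoters 24.69. The 10% of promoters with the most counts held 37.91% of all promoter counts, and the same share of other regions held 41.94% of theirs.

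The 5 promoters with the highest CPM per kb belonged to Sel1l, which acts in the degradation of misfolded ER proteins, Stt3a, a catalytic subunit of ER N-glycosylation, Hsd17b7 and Msmo1, both enzymes of cholesterol synthesis, and Tmx2, a thioredoxin-related membrane protein whose region also holds the start of Med19. The Sel1l promoter had 615.9 CPM per kb, with 327.6 to 475.3 CPM in cTregs (median 392.4, n = 7) and 296.4 to 405.3 CPM in eTregs (median 376.9, n = 7). The ranges overlapped, and none of these 5 promoters passed the test between states (adjusted p from 0.0850 for Hsd17b7 to 0.683 for Stt3a, edgeR's quasi-likelihood test with Benjamini-Hochberg adjustment over all tested regions).

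The share of a library's counts that fell in promoters described the balance between promoters and distal regions. It was 54.5%, 53.2% and 58.5% in control cTregs and 53.2%, 55.7%, 52.9% and 51.9% in Atg14-deficient cTregs. It was 56.8%, 54.8% and 57.8% in control eTregs and 53.5%, 57.4%, 55.1% and 54.98% in Atg14-deficient eTregs. The ranges of all 4 groups overlapped. The mean share was 55.4% ± 2.75 (SD, n = 3) in control cTregs and 53.4% ± 1.62 (SD, n = 4) in Atg14-deficient cTregs. In eTregs it was 56.5% ± 1.53 (SD, n = 3) for controls and 55.2% ± 1.62 (SD, n = 4) for Atg14-deficient libraries. The difference between states, 1.47 percentage points with the genotypes weighted equally, was smaller than the pooled SD within groups of 1.89 points, and so was that between genotypes in eTregs (-1.24 points). The difference in cTregs (-1.97 points) was close to that SD. With single libraries left out these differences ran from 0.919 to 2.24, from -2.07 to -0.56 and from -3.08 to -0.43 points, so that each could pass the pooled SD or fall short of it. The share was higher in eTregs than in the same-numbered cTreg library of that genotype in 6 of 7 pairs, with differences of -0.618 to 3.07 points. The pooled SD does not use this pairing, which the labels do not establish. Counting error was far smaller than these differences, with 95% Wilson intervals, which cover counting error only, of at most 0.0645 points to either side, although 81.97% of counts were even numbers and the intervals treat each count as independent.

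Nearly all of the variation in this share lay in CpG-rich promoters. Their share ran from 43.7% to 50.3% over the 14 libraries, while that of CpG-poor promoters ran from 7.93% to 8.24%. CpG-poor promoters held 8.04% ± 0.0723 (SD, n = 7) of the counts in eTregs and 8.17% ± 0.0516 (SD, n = 7) in cTregs, and a single eTreg library, Atg14-deficient replicate 3 at 8.17%, reached into the range of the cTreg libraries, which began at 8.11%.

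**Figure D1:**
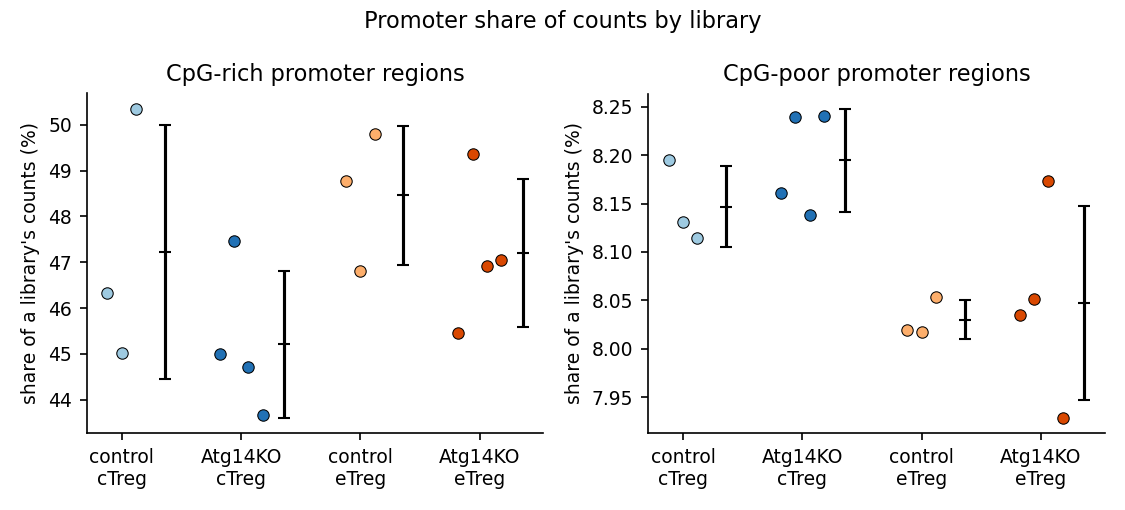
Share of each library's counts (%, vertical axes, which do not start at 0) in CpG-rich (left) and CpG-poor (right) promoter regions, by group. Points are libraries and the bars beside them mean ± SD (n = 3 or 4). The CpG-rich share spans 43.7% to 50.3% with all groups overlapping, and the CpG-poor share spans 7.93% to 8.24%.

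The spread between libraries of a group was smaller at promoters. Of the 14749 promoter regions, 14280 had enough counts for edgeR's filter and 469 did not, and the values below refer to those tested. The median SD of log2 CPM within groups (prior count 2) was 0.279 for promoters and 0.526 for other regions, and it was 0.240 for CpG-rich and 0.408 for CpG-poor promoters. Higher counts accompanied this, with a median of 78.6 counts per library at promoters. Among regions with mean counts between 50 and 100, the medians were 0.290 for promoters and 0.339 for other regions, so most of the gap went with counts. At mean counts up to 10 they were 0.763 and 0.738, with the higher value at promoters.

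**Figure D2:**
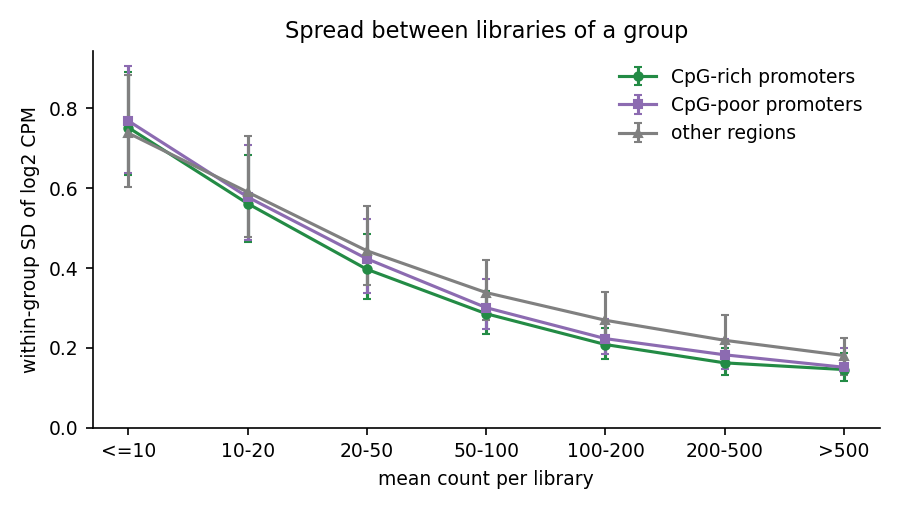
Within-group SD of log2 CPM (vertical axis) against mean count per library (horizontal axis, bins) for CpG-rich promoters, CpG-poor promoters and other regions. Points are medians over regions and bars the range from the 25th to the 75th percentile. Above a mean count of 10, the medians of both promoter classes lie below that of other regions in each bin.

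Among the 8946 promoters with a mean count of at least 50, the within-group SD ran from 0.0465 to 1.26 with a median of 0.212. The 5 with the highest SD were all CpG-poor and belonged to the zinc finger genes Zfp951 and Zfp939, the zinc finger and BTB protein gene Zbtb38, the growth factor homologue Fgf13 and the predicted gene Gm46430. At Zfp951, the control libraries had 19.1, 2.39 and 32.1 CPM in cTregs and 19.5, 2.62 and 46.9 CPM in eTregs for replicates 1, 2 and 3. The Atg14-deficient libraries had 11.8, 13.2, 24.2 and 14.1 CPM in cTregs and 12.6, 13.4, 26.2 and 13.4 CPM in eTregs for replicates 1 to 4. The low value of control replicate 2 and the high value of control replicate 3 thus appeared in both states. Gm46430 had 11.9 CPM in cTregs and 6.16 CPM in eTregs of Atg14-deficient replicate 4, against 30.96 to 81.3 CPM in all other libraries. Zinc finger genes form large families of similar sequence, and reads may be shared between members. This was not tested, so these values stay uncertain. The lowest SDs were at Nr2c2, an orphan nuclear receptor, Cables2, Hscb, an iron-sulfur cluster co-chaperone whose region also holds the start of the checkpoint kinase gene Chek2, Tpd52l2 and Wdr59, a regulator of mTORC1 signalling. All 5 are CpG-rich, and the Nr2c2 promoter stayed between 125.6 and 145.1 CPM in all 14 libraries.

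Between the states, eTregs were compared with cTregs over both genotypes weighted equally, and calls required both an adjusted p under 0.05 and a log2 fold change larger than 0.5 in size. More promoters rose than fell in eTregs. Of 14280 tested promoters, 998 (6.99%) were higher, against 8.4% of all tested regions, and 526 (3.68%) were lower, against 10.5% of all tested regions. Higher calls thus made up 65.5% of the promoter calls, but the split depended on scaling. It was 768 higher to 609 lower (55.8% higher) with libraries scaled to their promoter counts, and 687 to 663 (50.9%) with offsets that remove each library's dependence on GC content. Such offsets remove, by their construction, any average shift of GC-rich regions. The median log2 fold change was 0.09 over promoters and 0.01 over all tested regions. In bulk libraries, fewer cells with an open region and less accessibility per cell cannot be told apart.

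Calls changed with distance from the start. Within 100 bp of a start, 7.32% of tested regions were higher and 2.69% lower in eTregs. At 500 to 1000 bp these values were 5.38% and 7.49%, and more than 50000 bp away they were 10.5% and 14.97%. The share of lower calls rose with distance through every bin, and the share of higher calls had no single direction.

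**Figure D3:**
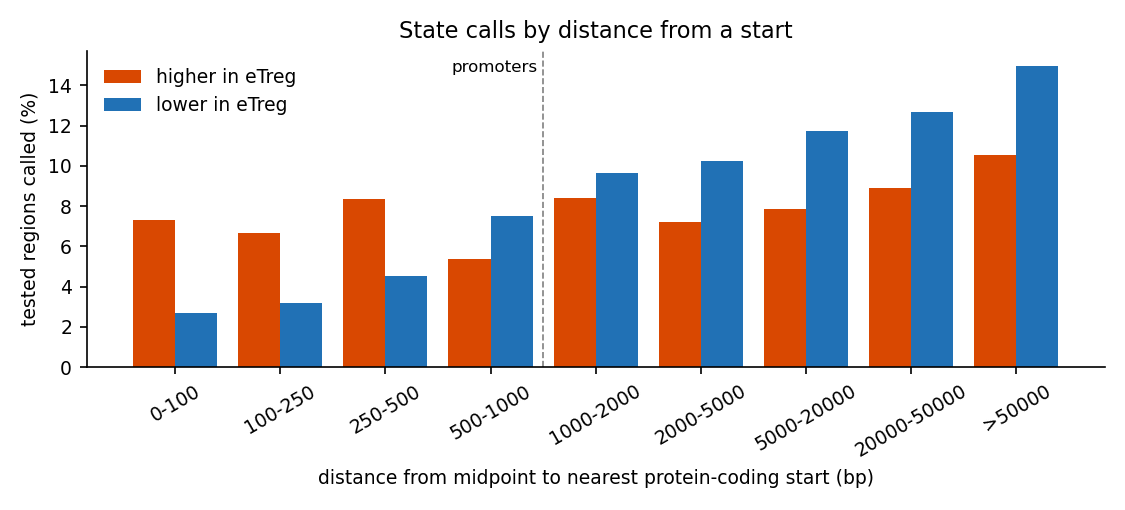
Percent of tested regions called higher or lower in eTregs (vertical axis) by distance of the region's midpoint from the nearest protein-coding start (horizontal axis, bp). The dashed line marks the limit of the promoter rule. Bars for lower calls increase from 2.69% next to starts to 14.97% beyond 50000 bp.

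CpG-rich and CpG-poor promoters differed in these calls. Of 9946 CpG-rich promoters, 701 were higher and 162 lower, and of 4334 CpG-poor promoters, 297 were higher and 364 lower. Calls were rarest at the most accessible promoters: with all tested promoters ranked by CPM per kb, 12.5% of the CpG-rich ones in the lowest 25% were higher, 11.96% and 5.62% of the next groups, and 1.40% of the highest. From the lowest to the highest 25%, lower calls went from 2.27% to 0.942% in CpG-rich promoters, and in CpG-poor promoters higher calls went from 8.62% to 1.63%. Lower calls of CpG-poor promoters were 8.39%, 9.49%, 9.16% and 4.28% from the lowest to the highest group. With GC-content offsets, CpG-rich calls became 383 higher and 324 lower, while CpG-poor calls became 304 and 339. Among CpG-rich promoters in the lowest 25% they were 232 higher and 42 lower with total-count scaling and 146 and 70 with those offsets. In the next group they went from 272 and 53 to 143 and 81, in the third from 154 and 38 to 76 and 92, and in the highest 25% from 43 and 29 to 18 and 81, so that lower calls outnumbered higher ones in the upper groups. Of 1357 tested promoters with starts of different genes on both strands, 6.04% were higher and 0.811% lower, both below the shares of all tested promoters.

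**Figure D4:**
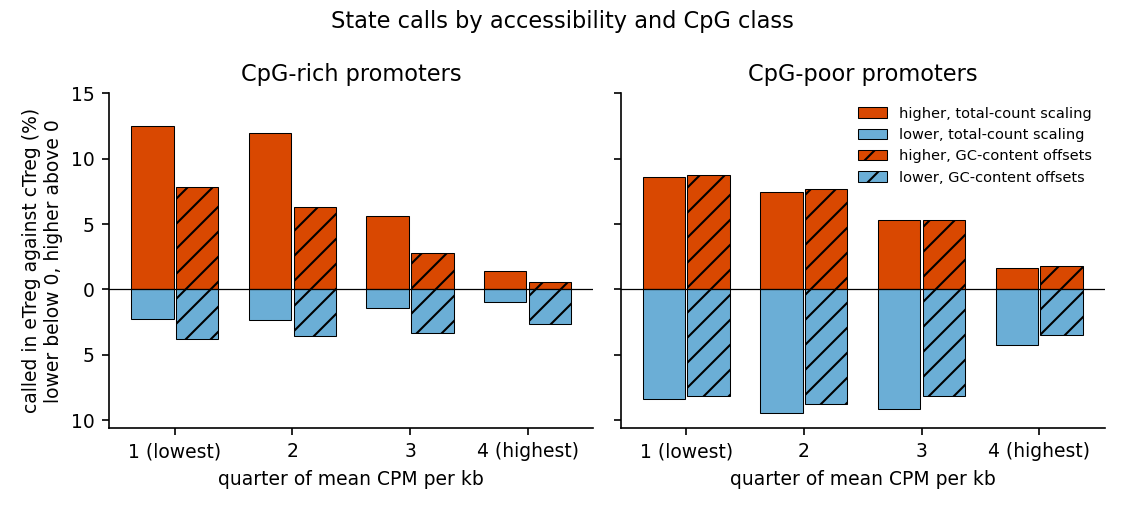
Percent of promoters called higher (above 0) or lower (below 0) in eTregs, by rank of mean CPM per kb in steps of 25%, for CpG-rich (left) and CpG-poor (right) promoters. Plain bars use total-count scaling and hatched bars GC-content offsets. In the lowest 25%, 12.5% of CpG-rich promoters are higher with the former and 7.88% with the latter, and 2.27% and 3.78% are lower.

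The 10 promoters with the smallest p among those that rose with all 7 eTreg above all 7 cTreg libraries belonged to genes of varied function. Among all promoters called, the libraries of the states did not overlap at 226 of the 998 higher and 126 of the 526 lower. Over all tested regions this held for 2852 of 11620 calls. Asb1, a substrate receptor of a ubiquitin ligase, had 44.5 to 58.6 CPM in cTregs (median 53.8, n = 7) and 92.0 to 111.9 CPM in eTregs (median 99.9, n = 7). All eTreg libraries lay above all cTreg libraries, and the log2 fold change was 0.95 (standard error 0.08, adjusted p = 2.91e-08, edgeR's quasi-likelihood test). Farp1, a guanine nucleotide exchange factor, had 5.78 to 13.2 CPM in cTregs (median 7.82, n = 7) and 28.8 to 40.2 CPM in eTregs (median 33.9, n = 7). Its log2 fold change was 1.96 (standard error 0.18, adjusted p = 4.28e-08, edgeR), and 6 of the 10 other tested regions nearest Farp1 were also higher in eTregs. Ryk, a receptor for Wnt ligands, had 3.89 to 11.6 CPM in cTregs (median 5.35, n = 7) and 22.3 to 33.6 CPM in eTregs (median 25.9, n = 7). Its log2 fold change of 1.98 (standard error 0.21) was the largest of the 10. The others were Pcyox1l (1.23), the transmembrane receptor gene Dcbld2 (0.86), the tyrosine phosphatase gene Ptpn13 (1.11), the palmitoyltransferase gene Zdhhc2 (1.00), the liprin gene Ppfibp2 (1.52), Ell2, which encodes an elongation factor of RNA polymerase II (0.76), and the mRNA cap methyltransferase gene Cmtr2 (0.61). All but Ppfibp2 are CpG-rich.

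The 10 with the smallest p among those that fell with libraries apart also belonged to genes of varied function. Ppa2, which encodes the mitochondrial inorganic pyrophosphatase, had a region 719 bp downstream of its start with 11.97 to 19.1 CPM in cTregs (median 14.8, n = 7) and 0.525 to 6.69 CPM in eTregs (median 2.05, n = 7). The libraries did not overlap, and the log2 fold change was -2.74 (standard error 0.31, adjusted p = 4.96e-07, edgeR). Sox4, an HMG-box transcription factor gene, had 41.8 to 91.9 CPM in cTregs (median 73.1, n = 7) and 18.6 to 31.4 CPM in eTregs (median 25.7, n = 7). Its log2 fold change was -1.47 (standard error 0.16, adjusted p = 9.26e-07, edgeR), and 19 of the 30 other tested regions nearest it were lower. Tox, another HMG-box factor gene known for its part in T cell development and exhaustion, had a log2 fold change of -0.91 and 28 of 57 other regions lower. The BEN-domain gene Bend5 (-1.37), the cell adhesion gene Chl1 (-2.08), the secreted C1q-like protein gene C1ql3 (-1.82), the predicted gene Gm9997 (-1.88), the flippase-subunit relative Tmem30c (-2.99), the glutaminyl cyclase gene Qpct (-1.68) and Wdpcp (-0.60) completed the group. The Wdpcp region also holds the start of Mdh1, the cytosolic malate dehydrogenase gene. Midpoints of 5 of the 10 lay over 500 bp downstream of the start, at Ppa2, Chl1, C1ql3, Gm9997 and Qpct.

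Calls at promoters were set beside those at other regions of the same genes, without a test. Of 487 lower promoters whose gene had another tested region nearest to it outside the promoter, 66.7% had one that was lower, and of 701 such higher promoters, 38.4% had one that was higher. In the opposite direction, 26.3% of the lower promoters had a higher region and 12.7% of the higher promoters a lower one. No other region was called for 27.3% of the lower and 54.9% of the higher promoters. Among promoters not called, 29.8% had a lower and 24.4% a higher one. Lower promoters had a median of 6 such regions and higher promoters 3, so the former had more chances. Among 2400 genes with at least 2 tested promoter regions, 470 had exactly 1 region called, 88 had more called in a single direction, and 6 had regions called in opposite directions.

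These 6 genes were Utp25, Nedd4l, Atp1b3, Smim3, Rere and Nfatc1. At Utp25, which encodes a factor of ribosome biogenesis, the region at the start had 10.5 to 21.8 CPM in cTregs (median 16.7, n = 7) and 19.1 to 28.6 CPM in eTregs (median 25.4, n = 7), a log2 fold change of 0.60 (adjusted p = 0.0116, edgeR). The region upstream, with its midpoint 824 bp away, had 18.7 to 32.1 CPM in cTregs (median 23.5, n = 7) and 8.99 to 21.0 CPM in eTregs (median 15.9, n = 7), a log2 fold change of -0.65 (adjusted p = 0.00657, edgeR). The ranges overlapped in both regions. Atp1b3, a sodium-potassium ATPase subunit gene, had midpoints 536 bp apart with log2 fold changes of 0.86 and -0.66. In Nedd4l, a ubiquitin ligase gene, and Rere, a co-repressor gene, the regions belonged to different starts and their midpoints were 220051 and 163701 bp apart. Nfatc1, which encodes a transcription factor of T cell receptor signalling, had 0.59 at its upstream start and -0.54 at a region whose midpoint was 5699 bp away. At Rere, Nfatc1, Smim3, Atp1b3 and Nedd4l at least 1 of the calls was lost when some single library was left out, and at Utp25 neither was. The higher Nfatc1 call was also lost with promoter-count scaling and with GC-content offsets. The lower Rere call was lost with GC-content offsets.

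Separate comparisons within each genotype used different libraries. In controls, 222 promoters were higher in eTregs, 1.55% against 2.01% of all tested regions, and 169 were lower, 1.18% against 3.29%. In Atg14-deficient cells, 784 were higher, 5.49% against 4.41% of all tested regions, and 315 were lower, 2.21% against 5.4%. Of the 222 higher in controls, 220 had the same sign in Atg14-deficient cells and 122 (54.95%) were called there, which is 15.56% of the 784. Of the 169 lower, 167 had the same sign and 93 were called, 55.03% of these and 29.52% of the 315. No promoter was called in opposite directions. The difference between these numbers of calls is not a test of a difference between genotypes, which is given further on as the interaction. The splits moved with scaling, to 157 higher and 203 lower in controls and 536 and 410 in Atg14-deficient cells when scaled to promoter counts, and to 188 and 207, and 405 and 524, with GC-content offsets. With each pair of same-numbered libraries of a genotype taken as 1 mouse, an alternative that the labels do not establish, calls were 839 in controls and 1729 in Atg14-deficient cells. The 391 calls in controls became 130 without control cTreg replicate 1, 184 without control cTreg replicate 3, 135 without control eTreg replicate 1 and 196 without control eTreg replicate 2, and the balance turned to 130 higher and 149 lower without control eTreg replicate 3. The 1099 calls in Atg14-deficient cells became 725 and 500 without Atg14-deficient cTreg replicates 2 and 3 and 527 without Atg14-deficient eTreg replicate 4.

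Among genes grouped by function, each taken at its promoter region of highest mean count, promoters of the cTreg and quiescent T cell list fell or did not pass. Of 18 tested, 8 were lower and 0 higher in eTregs, against 10.5% and 8.4% of all tested regions. Ccr7, the chemokine receptor for homing to lymph nodes, had 18.7 to 44.0 CPM in cTregs (median 38.4, n = 7) and 8.78 to 25.9 CPM in eTregs (median 15.9, n = 7), with some overlap and a log2 fold change of -1.20 ± 0.19 (SE, adjusted p = 4.36e-05, edgeR). Satb1, a chromatin organizer of T cells, had 60.7 to 87.6 CPM in cTregs and 40.6 to 52.3 CPM in eTregs, with no overlap and a log2 fold change of -0.63. S1pr1, the receptor for exit from lymphoid organs, had -0.84, and Nsg2 had -0.80. Others that fell, named after their values were seen, included the transcription factor genes Tcf7 (-1.84) and Klf2 (-0.56) and the IL-7 receptor gene Il7r (-1.08). The promoter of Cd44, which encodes a marker of the sort, had 17.95 to 22.5 CPM in cTregs and 17.5 to 27.0 CPM in eTregs and was not called.

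Of 37 promoters of the eTreg and tissue Treg list, 4 were higher and 2 lower, against 8.4% and 10.5% of all tested regions. Areg, the gene of the tissue-repair factor amphiregulin, had 7.79 to 23.5 CPM in cTregs (median 14.3, n = 7) and 25.9 to 50.3 CPM in eTregs (median 32.8, n = 7), with no overlap and a log2 fold change of 1.30 ± 0.17 (SE, adjusted p = 5.96e-06, edgeR). Nfil3, a bZIP transcription factor gene, had 0.58, and its call was lost with GC-content offsets. The other members that rose, named after their values were seen, were Ebi3, a subunit gene of IL-35 (1.28), and Lgals3, the galectin-3 gene (0.70). Icos, a costimulatory receptor gene, and Irf4, a transcription factor gene of effector differentiation, fell at these promoters, with log2 fold changes of -0.72 and -0.84. Icos had 29.3 to 48.7 CPM in cTregs (median 33.5, n = 7) and 16.2 to 25.2 CPM in eTregs (median 22.1, n = 7), without overlap, while the ranges of Irf4 overlapped. Its region lay 680 bp upstream of the nearest start.

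In the Treg and T cell identity list, 3 of 13 tested promoters were lower in eTregs and 0 higher, against 10.5% and 8.4% of all tested regions. They belonged to the coinhibitory receptor gene Ctla4 (-0.61), the adhesion molecule gene Cd2 (-0.72) and the costimulatory receptor gene Cd28 (-0.53). The Cd28 call was lost with GC-content offsets, while Lck, the gene of a T cell receptor kinase, was also called lower with those offsets (-0.52) and with promoter-count scaling (-0.52). Foxp3, Cd4 and Cd3d had no promoter region in the table by this rule, so the label of the cells was checked with other markers. Promoters of 3 of 4 Treg markers (Il2ra, Ikzf2 and Ctla4) were tested, and their summed level was 108.7 to 149.3 CPM in cTreg and 80.0 to 106.7 CPM in eTreg libraries. Of 7 T cell markers 5 were tested, with 89.6 to 136.1 CPM in cTreg and 70.3 to 117.5 CPM in eTreg libraries.

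Tested promoters of markers of other cell types had lower medians, from 12.86 (erythroid) to 28.07 CPM per kb (myeloid). The medians were 63.8 for Treg and 46.2 for T cell markers. Single promoters overlapped, with a myeloid one at 36.56 and a T cell one at 20.64 CPM per kb. The sums given here cover unlike numbers of promoters. Of 8 B cell markers only Ebf1 was tested, with 0.779 to 12.5 CPM, and Cd79a, Cd79b, Ms4a1, Pax5 and Blk had no promoter region. Of 8 CD8 T and NK cell markers 5 were tested, with a sum of 39.2 to 83.1 CPM in cTreg and 31.4 to 59.3 CPM in eTreg libraries. Cd8b1, a CD8 coreceptor gene, fell from 10.3 to 21.4 CPM in cTregs to 1.54 to 6.83 CPM in eTregs (log2 fold change -1.82, adjusted p = 1.96e-05, edgeR). Of 8 myeloid markers, Cd68 and Cebpa were tested and both were higher in eTregs, but only 1 of the 2 with promoter-count scaling. Their sum was 11.3 to 16.4 CPM in cTreg and 22.6 to 44.9 CPM in eTreg libraries, while Lyz2, Csf1r, Itgam, Adgre1, Fcgr3 and Csf3r had no promoter region. Cebpa, a CpG-rich transcription factor gene of myeloid cells, had a log2 fold change of 1.34 (adjusted p = 2.09e-05, edgeR). Both tested erythroid markers, Epor and Hbb-bt, were not called and summed to 4.55 to 14.9 CPM. The part of other cells in the state differences was not tested.

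In the autophagy and Vps34 complex list, 5 of 36 promoters were higher and 1 lower in eTregs, shares of members to be read against the backgrounds of 8.4% and 10.5%. Map1lc3b, which encodes the LC3B protein of autophagosome membranes, had 12.6 to 24.9 CPM in cTregs (median 20.6, n = 7) and 22.6 to 35.8 CPM in eTregs (median 31.5, n = 7), a log2 fold change of 0.64 (adjusted p = 0.00260, edgeR). The lipid transfer genes Atg2b (0.62) and Atg2a (0.59) and Pik3r4, a regulatory subunit of Vps34 complexes (0.55), were also higher. Atg2b lost its call with GC-content offsets, and its region also holds the start of Gskip. The remaining calls, named after their values were seen, were Gabarap, a relative of LC3B (0.81), and the protease gene Atg4c, which fell (-0.77). Atg14 itself had 16.8 to 35.2 CPM in cTregs and 19.8 to 31.2 CPM in eTregs at its promoter and differed neither between states (adjusted p = 0.999, edgeR) nor between genotypes (0.03 in eTregs and -0.38 in cTregs, adjusted p = 0.987 and 1, edgeR) past a threshold. The regions follow open chromatin and do not measure the deletion.

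For the other lists, too, the counts are to be read against 8.4% of all tested regions higher and 10.5% lower. Of 36 proteasome promoters 5 were higher and 0 lower, among them Psmd12 (0.83), Psmb6 (0.82), Psmd3 (0.74), Psmb3 (0.59) and, named after its values were seen, Psmd9 (1.28), and 5 were also higher with TMM normalization, promoter-count scaling and GC-content offsets. Of 79 ribosomal protein promoters 4 were higher and 1 lower, and 2 and 1 with TMM normalization, promoter-count scaling or GC-content offsets. The lower one, Rpl37, had 136.4 to 181.4 CPM in cTregs and 86.3 to 116.1 CPM in eTregs, without overlap (log2 fold change -0.62, adjusted p = 8.86e-06, edgeR), and its region also holds the start of Card6. Of 86 oxidative phosphorylation promoters 2 were higher and 1 lower, or 1 and 1 with GC-content offsets, and of 25 cell cycle promoters 2 were higher, Top2a, the gene of topoisomerase II alpha (0.63), and, named after its values were seen, Birc5 (0.54). The cell cycle counts were 1 higher and 0 lower with promoter-count scaling and 1 and 1 with GC-content offsets, the lower one being the cyclin E2 gene Ccne2. Of 20 survival and apoptosis promoters 1 was higher, that of the proapoptotic gene Bad (0.94), whose region also holds the start of Gpr137, and 1 was also lower with promoter-count scaling (Fasl) and with GC-content offsets (Bbc3). None of 17 interferon-stimulated promoters was called. Of 19 promoters of AP-1 and antigen-receptor-induced factors 1 was higher, Batf3 (0.90, named after its values were seen), but 0 were higher and 1 lower with promoter-count scaling and 1 was higher and 3 lower with GC-content offsets. Of 12 Hox promoters 3 were higher, Hoxb4 (1.41), Hoxc10 (1.12) and Hoxb8 (0.90), from low levels of 0 to 5.14 CPM in cTregs, and Hoxb8 lost its call with promoter-count scaling. Of 33 histone promoter regions 1 was higher and 1 lower, at H3c4 (0.69) and H1f2 (-0.51). Histone genes lie in a family of similar copies whose reads may be shared, which was not tested. H3c10 was a further lower call with TMM normalization (-0.56) and with promoter-count scaling (-0.58).

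Shares of some searched letters differed between the classes of promoters, and the motifs given here are a selection. The RUNX letters, as a counterexample, were in 24.24% of higher, 21.43% of lower and 24.58% of not called CpG-poor promoters. The central 300 bp held TGANTCA, the AP-1 letters, in 17.5% of 297 CpG-poor promoters higher in eTregs, 10.2% of 364 lower ones and 10.6% of 3673 not called. In CpG-rich promoters these shares were 4.85%, 0.617% and 3.25%. CCGGAAG, letters of ETS factors, was in 13.7% of CpG-rich promoters that were higher, 6.17% of those lower and 19.7% of those not called. GGGCGGG, the GC box of SP and KLF factors, was in 60.8%, 48.8% and 54.1%. Over all promoter regions, 5.783% held the AP-1 letters, 15.06% the ETS letters and 43.57% the GC box, against 17.23%, 3.231% and 5.848% of the other regions. These shares are descriptions, and length and GC content differ between the classes.

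Between genotypes, 622 promoters in eTregs passed an unadjusted p of 0.05 with a log2 fold change beyond 0.5. Of these 468 (3.28%) were higher in Atg14-deficient eTregs, against 4.59% of all tested regions, and 154 (1.08%) were lower, against 1.77%. On the X chromosome the balance differed, with 3 of 445 tested promoters higher and 25 (5.618%) lower. In cTregs 130 promoters (0.91%) were higher, against 1.99% of all tested regions, and 153 (1.07%) were lower, against 1.35%. In eTregs, 75.2% of the calls were thus higher, and this was 58.4% with TMM normalization, 64.5% with DESeq2 and 55.5% with GC-content offsets. In cTregs the 45.9% that were higher became 63.4% when libraries were scaled to promoter counts. Single libraries moved these counts. In eTregs the 468 became 301 without Atg14-deficient replicate 4, and the 154 became 295 without Atg14-deficient replicate 2 and 237 without control replicate 2. In cTregs there were 98 higher and 275 lower without Atg14-deficient replicate 4, and the balance turned to 219 and 173 without control replicate 2 and to 170 and 142 without Atg14-deficient replicate 3. The median log2 fold change of promoters was 0.01 in eTregs and -0.04 in cTregs, against 0.06 and 0.03 over all tested regions. The former turned negative with TMM normalization, DESeq2 and GC-content offsets, and the latter turned positive (0.01) when libraries were scaled to promoter counts.

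The overlap of these calls between the states was as follows. The states share no libraries but may share mice, so their agreement may not be independent. Of the 468 higher in Atg14-deficient eTregs, 311 had the same sign in cTregs and 28 were called there, which is 5.98% of these and 21.5% of the 130 higher in cTregs. Of the 154 lower, 115 had the same sign and 12 were called, 7.79% of these and 7.84% of the 153. Over all tested promoters, 0.91% were called higher and 1.07% lower in cTregs. The difference between the genotype effects, tested as the interaction, was higher in eTregs at 313 promoters at the unadjusted threshold, 2.19% against 1.9% of all tested regions, and lower at 102, 0.714% against 1.14%. The former count was 203 without Atg14-deficient eTreg replicate 4 and the latter 156 without Atg14-deficient eTreg replicate 2. The share of higher calls, 75.4%, was 65.0% with DESeq2 and 54.3% with GC-content offsets. At the adjusted threshold 0 promoters passed, 0% as over all tested regions, with 415 promoters at the unadjusted threshold, and DESeq2 gave 0 adjusted and 380 unadjusted.

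At the adjusted threshold, 4 promoter regions passed between genotypes in eTregs (0.0228% of all tested regions passed) and 5 in cTregs (0.0163% of all tested regions). The count in cTregs was 3 without any of control cTreg replicates 1, 2 and 3 or Atg14-deficient cTreg replicate 2. Both H2-M3 regions and Zfp932 passed in both states. H2-M3 encodes a nonclassical MHC class I protein that presents N-formylated peptides. Its region 747 bp downstream of the start had 2.44, 0.957 and 2.68 CPM in control cTregs and 1.95, 0.525 and 2.52 CPM in control eTregs. It had 47.0, 31.1, 50.5 and 46.9 CPM in Atg14-deficient cTregs and 40.2, 30.1, 39.7 and 45.204 CPM in Atg14-deficient eTregs. The region at its start (51 bp upstream) had 0.479 to 3.42 CPM over the 6 control libraries and 17.1 to 25.8 CPM over the 8 Atg14-deficient libraries. The log2 fold changes of this region were 4.19 in cTregs and 3.37 in eTregs (adjusted p = 1.80e-06 and 1.17e-05, edgeR). Both regions were thus near 0 in every control library and neither passed the test between states (adjusted p = 0.724 and 0.334, edgeR). MHC class I genes are a family of similar sequences, so reads may be shared. This was not tested, and these values stay uncertain.

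Zfp932, a zinc finger gene, had 0.489, 0.957 and 5.35 CPM in control cTregs and 1.95, 0 and 1.08 CPM in control eTregs. It had 31.9, 43.6, 23.4 and 25.1 CPM in Atg14-deficient cTregs and 30.6, 40.2, 31.0 and 31.3 CPM in Atg14-deficient eTregs. The genotypes did not overlap in either state. As a member of a large zinc finger family its reads may be shared with related genes, which was not tested.

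Bmf, which encodes a proapoptotic BH3-only protein, had 1.95, 6.82 and 6.13 CPM in control eTregs and 21.6, 25.5, 15.9 and 21.1 CPM in Atg14-deficient eTregs. No control library overlapped an Atg14-deficient library, and the log2 fold change was 2.02 (standard error 0.33, adjusted p = 0.0113, edgeR). In cTregs it had 5.38, 5.74 and 6.24 CPM in controls and 12.6, 14.02, 7.89 and 15.4 CPM in Atg14-deficient libraries. These did not overlap either, but the log2 fold change of 1.10 (standard error 0.34) passed only the unadjusted threshold (adjusted p = 1, edgeR). The interaction at Bmf did not pass (log2 difference 0.92, unadjusted p = 0.0636, edgeR). In eTregs the adjusted p was 0.167 without control replicate 1. Of the other tested promoters of the survival and apoptosis list, 1 was higher at the unadjusted threshold in eTregs, that of the antiapoptotic gene Mcl1 (0.54), against 4.59% of all tested regions. In cTregs 1 was lower, that of the proapoptotic gene Bik (-1.01), against 1.35% of all tested regions. Both were named after their values were seen.

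Pnp2, which encodes a purine nucleoside phosphorylase, was lower in Atg14-deficient cTregs at the adjusted threshold, with no other promoter lower in either state by edgeR with total-count scaling. DESeq2 called 4 promoters lower in eTregs and 3 in cTregs, and edgeR with GC-content offsets 2 in eTregs and 1 in cTregs. It had 8.80, 13.2 and 12.5 CPM in control cTregs and 2.52, 1.56, 0.526 and 2.57 CPM in Atg14-deficient cTregs, a log2 fold change of -2.71 ± 0.46 (SE, adjusted p = 0.0157, edgeR). In eTregs it had 17.6, 13.1 and 18.7 CPM in controls and 8.39, 4.18, 2.65 and 2.06 CPM in Atg14-deficient libraries, a log2 fold change of -1.94 (adjusted p = 0.0930, edgeR). The genotypes did not overlap in either state, and the interaction did not pass (unadjusted p = 0.229, edgeR). The gene lies 3.388 Mb from Atg14 on chromosome 14 and next to a related gene with which reads may be shared, which was not tested. Within 5 Mb of Atg14, 58 promoters were tested. Of these 0 were higher and 3 lower in Atg14-deficient eTregs, and 0 were higher and 2 lower in cTregs, at the unadjusted threshold. The lower ones are 5.17% and 3.448%, against 1.08% and 1.07% of all tested promoters that were lower. In either direction, 4.356% of all tested promoters were called in eTregs and 1.982% in cTregs. Within 10 Mb, 1 of 126 was higher and 3 lower in eTregs (3.175% in both directions together, below the 4.356% of all tested promoters). In cTregs 0 were higher and 3 lower (2.38%, against 1.982%). The adjusted call was lost without any of control cTreg replicates 1, 2 and 3 and Atg14-deficient cTreg replicates 2 and 3, with an adjusted p of up to 0.165.

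**Figure D5:**
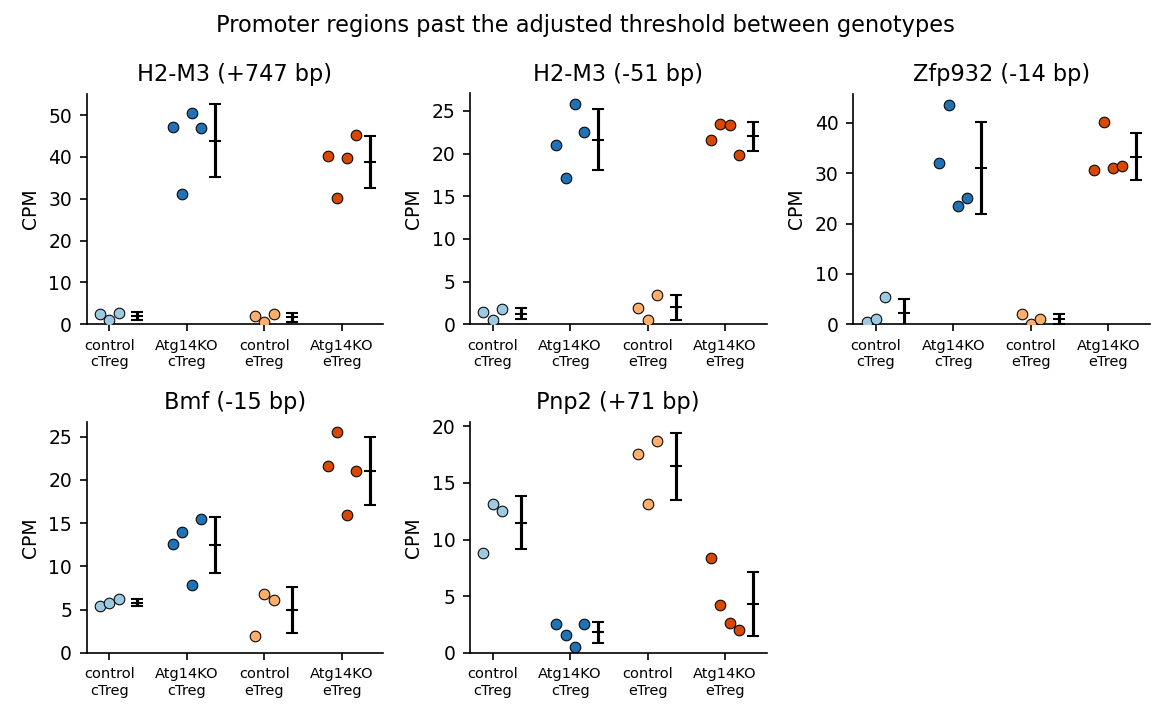
CPM (vertical axes from 0) of 5 promoter regions past the adjusted threshold between genotypes, by group, with the distance of the midpoint from the start in the titles. Points are libraries and the bars beside them mean ± SD (n = 3 or 4). H2-M3 and Zfp932 are at 0 to 5.35 CPM in control and 17.1 to 50.5 CPM in Atg14-deficient libraries, and Pnp2 is lower in Atg14-deficient libraries in both states.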

How the data were processed

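ATAC-seq was carried out on sorted cTregs and eTregs, and the deposited table holds raw counts per region made by the authors, with regions merged over peaks and not normalized. The submitters' processing notes name cutadapt 1.9, Picard 1.65, SAMtools, MACS2 2.1.0.20150603 and bedtools with mm10, while the methods name another trimmer, BWA and an older build. The coordinates lay inside GRCm38 chromosome ends and at its starts, so GRCm38 was used. Per the methods, duplicates were removed, the transposase offset was corrected and only nucleosome-free fragments were kept, so values reflect short fragments at narrow open sites. 0 columns of per-sample values went unused.

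Regions were assigned with RefSeq mRNA starts, pysam 0.24.0 and pandas 2.3.3 (Python 3.11.15). Regions passing edgeR's expression filter (61366 of 67254) were fitted together over all 4 groups with edgeR 4.0.16 (R 4.3.3), by quasi-likelihood with libraries scaled to their totals of 2242983 to 5548189 counts, and Benjamini-Hochberg adjustment ran over all of them. The biological coefficient of variation was 25.62%. State calls used an adjusted p below 0.05 and genotype calls also an unadjusted one, each with a log2 fold change beyond 0.5. The script was tested on simulated data.

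The members and gene lists were chosen with earlier results of these data known. Named promoters were the 10 with the smallest p per direction between states among those with libraries apart, up to 8 past the adjusted threshold per genotype comparison with libraries apart, the 5 highest by CPM per kb and the 5 with the highest and lowest SD, up to 6 genes with opposite calls, Atg14, and the 4 promoters with the smallest p between states per list, of which the text gives those called under any scaling it names. A few promoters that met these rules are not reported here. Alternatives were TMM, DESeq2 1.42.0, promoter-count scaling, loess offsets on GC content, other filters, thinned counts, replicate blocks, other definitions of starts and leaving out each library.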

Additional observations from a re-analysis of the deposited data

Results flagged for a closer look

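In groups of 4, a library was singled out where its gap to the nearest other made up most of the group's range. This held for 7 of 90 values, and chance flags about 1 in 20 groups. In Atg14-deficient cTregs, the Bend5 promoter had 53.4 CPM in replicate 3 against 34.1 to 35.3 in the others. The Qpct promoter had 30.4 CPM in replicate 2 against 14.1 to 15.96. The Sel1l promoter had 354.3 CPM in replicate 4 against 390.4 to 393.0, and the lower Smim3 region had 4.82 CPM in that replicate against 6.72 to 7.01. In Atg14-deficient eTregs, replicate 2 stood apart at 3 promoters. It had 10.5 CPM at Gm9997 against 4.79 to 5.65, 40.2 CPM at Zfp932 against 30.6 to 31.3, and 15.1 CPM at the higher Rere region against 25.2 to 26.5. The causes were not tested.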

How the results depend on the processing

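With a log2 cutoff of 1, calls were 488 between states, 205 of these kind in controls, 382 in Atg14-deficient cells, 159 and 114 between genotypes in eTregs and cTregs at the unadjusted threshold and 154 for the interaction. With at least 10 counts in every library, adjusted genotype calls were 0 in eTregs and 0 in cTregs, but the 4 promoters called in eTregs and 4 of the 5 in cTregs each had a library under 10 counts and were removed by this filter, so their loss follows from it (the cause was not tested for the remaining one), and unadjusted calls in cTregs were 170. DESeq2 gave 11 adjusted genotype calls in eTregs. The median promoter log2 fold change between states was 0.00899 with GC-content offsets, and that between genotypes in eTregs was -0.0397 with TMM, -0.0433 with GC-content offsets and -0.00908 to 0.0246 with single libraries left out. With GC-content offsets, 3.851% of CpG-rich promoters were higher and 3.258% lower. Leaving out single libraries gave 130 to 489 state calls in controls, 500 to 1382 in Atg14-deficient cells and 3 to 6 adjusted genotype calls in cTregs. GENCODE starts, chosen after seeing the data, gave 1379 state calls.

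The replicate block ties all libraries of the same number, also those of different genotypes, which are different mice. With it, calls were 1587 between states, 479 in controls and 1189 in Atg14-deficient cells, and 1403 between states with GC-content offsets as well. Genotype calls with the block were 488 in eTregs and 336 in cTregs (112 higher, 224 lower), with 4 adjusted calls in cTregs (Pnp2 was lost), and 439 for the interaction. With the block nested in genotype, state calls were 1844 over both genotypes, 839 in controls and 1729 in Atg14-deficient cells. The interaction then had 605 calls at the unadjusted threshold (455 higher, 150 lower) and 0 at the adjusted one. Deviations of same-numbered cTreg and eTreg libraries correlated at 0.054, 0.209 and 0.19 in controls and 0.119, 0.243, 0.14 and 0.225 in Atg14-deficient cells. Not every pair thus passed 0.1, although all 14 libraries were closest to their own number in the other state of that genotype. Between genotypes, same-numbered libraries correlated at -0.217 to 0.091.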

Other observations

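In the Treg and T cell identity list, 3 of 13 tested promoters were higher in Atg14-deficient eTregs and 0 of 13 were called in cTregs at the unadjusted threshold, against 4.59% and 1.99% of all tested regions called higher. The list's median log2 difference was 0.33 in eTregs and 0.21 in cTregs, the same direction in both. In the cTreg and quiescent list 2 of 18 were higher in eTregs and 0 were called in cTregs, with medians of 0.17 and 0.08. In the eTreg and tissue Treg list 4 of 37 were higher in eTregs, and 1 was higher and 2 lower in cTregs, with medians of 0.19 and -0.02. The other lists had 0 to 4 promoters higher and 0 to 1 lower in eTregs. Cd28 had a log2 difference of 0.55 (unadjusted p = 0.00264, edgeR) in eTregs. Whether the lists differ between states was not tested.

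The 3 tested Y-linked promoters had log2 fold changes between states of -0.50 at Uty, -0.45 at Eif2s3y and -0.54 at Kdm5d (adjusted p = 0.00782, 0.0452 and 0.309, edgeR). None met both criteria of a call with total-count scaling, and Uty met them with TMM normalization (-0.51) and promoter-count scaling (-0.54).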
